A study of Rattus norvegicus with 6 samples.

Results

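Arc, the Homer scaffolds and the neuronal pentraxins act at synapses, and some of their genes respond to neuronal activity. The mRNAs of 8 genes were looked for in the prelimbic cortex (PL) of rats with neuropathic pain. They were Arc, Homer1, Homer2, Homer3, Nptx1, Nptx2, Nptxr and the transcription factor Npas4. A probe set, a group of short probes that together read 1 mRNA, was taken when its only symbol in the platform annotation was 1 of these names. The rule found 12 probe sets for 6 genes, of 31042 probe sets and 14217 genes in all. No probe set carried the symbol, an older symbol or the gene ID of Npas4 or Nptx2, and both were not analysed here. A further probe set that names Homer1 beside a second gene was left out. The genes were selected on differences between the SNI and control groups already seen in these arrays, above all those of Arc and Homer2. The differences below are therefore a description, and no p-value is given for a member.

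The samples came from male Sprague Dawley rats, acquired at 6 to 7 weeks of age. In the SNI group (spared nerve injury, a model of neuropathic pain) the tibial and common peroneal branches of the left sciatic nerve were cut and the sural branch was spared. In the control group the same nerves were only exposed. All rats were deeply anesthetized with pentobarbital and decapitated 14 days after surgery, and the PL opposite to the injury was dissected. There were 3 samples per group, and no source used here says that they were separate rats, so errors measure the spread between samples, which may be technical. A value is a log2 signal after RMA correction and quantile normalization, given relative to the median of its probe set over the 6 samples. Differences between samples can be read from it. Absolute expression and signal over background cannot, and no gene is ranked against another by level. On the first principal component of all probe sets, control samples 1 and 3 lay away from the rest (21.9 and 16.04, with the other 4 samples between −11.3 and −6.18). Without control sample 1 or 3, the log2 difference was 1.60 or 1.76 for Arc and 0.84 or 0.79 for Homer2, the 2 members described first.

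Arc is an immediate early gene, transcribed soon after synaptic activity without new protein synthesis, and its protein promotes the removal of AMPA receptors from synapses. Homer proteins link group 1 metabotropic glutamate receptors to Shank scaffolds and to calcium channels of internal stores. Homer1 also makes short activity-induced forms that lack the coiled coil and loosen these links. Neuronal pentraxins are secreted or membrane-bound proteins that cluster AMPA receptors at synapses.

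The largest difference among the members was that of Arc. Its log2 values were 0.41, 1.72 and 1.33 in the SNI samples, numbered 1 to 3, against −0.82, −0.41 and −0.49 in the control samples. Every SNI sample lay above every control sample, although SNI sample 1 lay well below the other two. Mean log2 values were 1.15 ± 0.67 (SD, n = 3) after SNI and −0.57 ± 0.22 (SD, n = 3) for controls. The log2 difference was 1.72 (SE 0.29, 95% confidence interval 1.05 to 2.40), a linear ratio of 3.30. Among differences with SNI higher, it ranked 2 of all probe sets. By size in either direction it ranked 5. Arc has only 1 probe set, so no second reading of this mRNA was at hand.

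Homer2, which encodes a long Homer form that joins receptors to the postsynaptic scaffold, was next. Its values were 0.03, 0.74 and 0.33 in the 3 SNI samples and −0.81, −0.03 and −0.91 in the 3 control samples. The groups did not overlap, but control sample 2 and SNI sample 1 lay close together. The log2 difference was 0.95 (SE 0.25, 95% confidence interval 0.38 to 1.53), a linear ratio of 1.94, from means of 0.37 ± 0.36 (SD, n = 3) after SNI and −0.58 ± 0.48 (SD, n = 3) for controls. Homer2 too was read by 1 probe set.

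**Figure D1:**
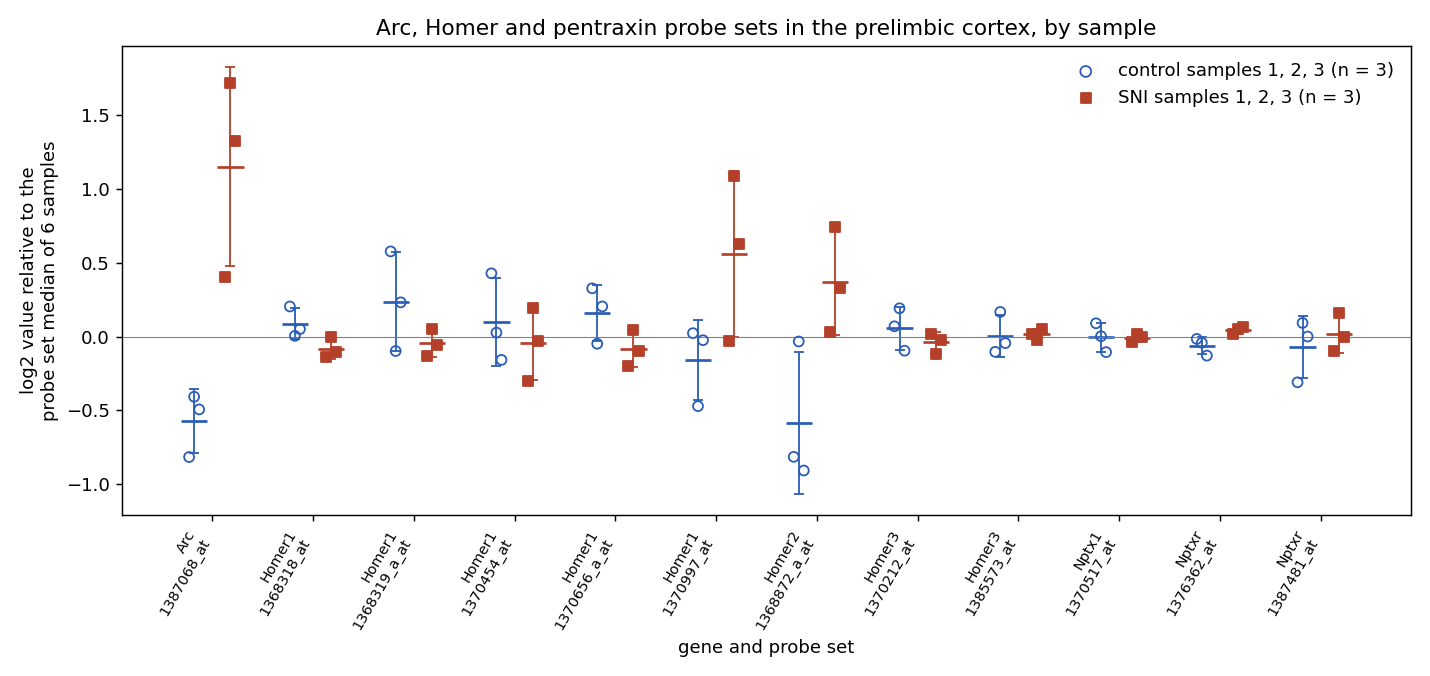
Log2 value of each sample relative to the median of its probe set (y axis) for the 12 probe sets (x axis). Open circles are control samples and filled squares SNI samples, with 3 in each group; horizontal bars are means and error bars SDs. The squares of Arc run from 0.41 to 1.72, above its circles at −0.82 to −0.41.

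The log2 differences of the 5 probe sets of Homer1 were not alike. Probe set 1370997_at had values of −0.03, 1.09 and 0.63 in the SNI samples and 0.02, −0.47 and −0.02 in the control samples. SNI samples 2 and 3 lay above all control samples, whereas SNI sample 1 lay among them. The log2 difference of this probe set was 0.72 (SE 0.26, 95% confidence interval 0.12 to 1.32). The other 4 probe sets of Homer1 had log2 differences of −0.17 (1368318_at), −0.28 (1368319_a_at), −0.14 (1370454_at) and −0.24 (1370656_a_at), and each of their 95% confidence intervals held 0. Of these, only 1368318_at had groups that did not overlap. Its SNI values were −0.14, −0.01 and −0.11 and its control values 0.20, 0.01 and 0.05, so the nearest samples of the 2 groups were almost level.

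The mean of these 4 probe sets was −0.19, 0.07 and −0.07 in the SNI samples and 0.38, −0.03 and 0.08 in the control samples. The difference between 1370997_at and this mean was 0.16, 1.02 and 0.70 in the SNI samples and −0.36, −0.44 and −0.11 in the control samples, without overlap. This split of the probe sets was made after their values were seen, with the probe set of the largest difference set apart. That choice favours a lack of overlap, so nothing is read from it. The annotation names the gene but not the form of Homer1 that each probe set reads, so the forms cannot be named here. Over all 5 probe sets the gene mean was −0.02 (SE 0.13, 95% confidence interval −0.34 to 0.29), and the opposed directions of the probe sets are hidden in it.

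**Figure D2:**
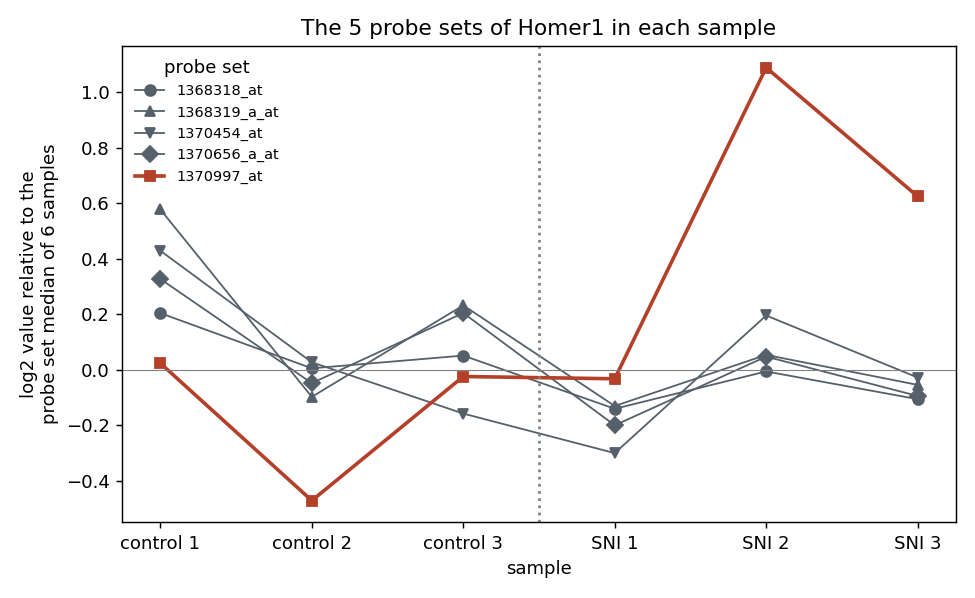
Log2 value relative to the probe set median (y axis) of the 5 probe sets of Homer1 in the 3 control and 3 SNI samples (x axis); a line joins the values of 1 probe set and marks no order of the samples. Probe set 1370997_at reaches 1.09 in SNI sample 2, and the other 4 probe sets have their highest values in control sample 1.

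Homer3, the third member of the family, showed no difference of this size. Probe set 1370212_at was at 0.02, −0.11 and −0.02 in the SNI samples and at 0.07, 0.19 and −0.10 in the control samples. Probe set 1385573_at lay between −0.02 and 0.05 in the SNI samples and between −0.10 and 0.17 in the control samples. The groups overlapped on both. The log2 differences were −0.09 (SE 0.09) and 0.01 (SE 0.08), and the gene mean was −0.04 (95% confidence interval −0.22 to 0.13).

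The pentraxins differed little between the groups. Nptx1, a secreted pentraxin, had values of −0.04, 0.02 and 0.00 in the SNI samples and 0.09, 0.00 and −0.10 in the control samples, so the SNI samples lay inside the range of the control samples. Its log2 difference was −0.0032 (95% confidence interval −0.16 to 0.16). Nptxr, the membrane-bound pentraxin receptor, was read by 2 probe sets. On 1376362_at the SNI samples (0.02, 0.05 and 0.06) lay above the control samples (−0.02, −0.04 and −0.13), and the log2 difference was 0.11 (SE 0.06). On 1387481_at the groups overlapped, with SNI samples at −0.10, 0.16 and −0.0009, control samples at −0.31, 0.09 and 0.0009, and a log2 difference of 0.09 (SE 0.12). The gene mean of Nptxr was 0.10 (95% confidence interval −0.06 to 0.26). For both genes the intervals leave out a difference as large as that of Homer2.

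**Figure D3:**
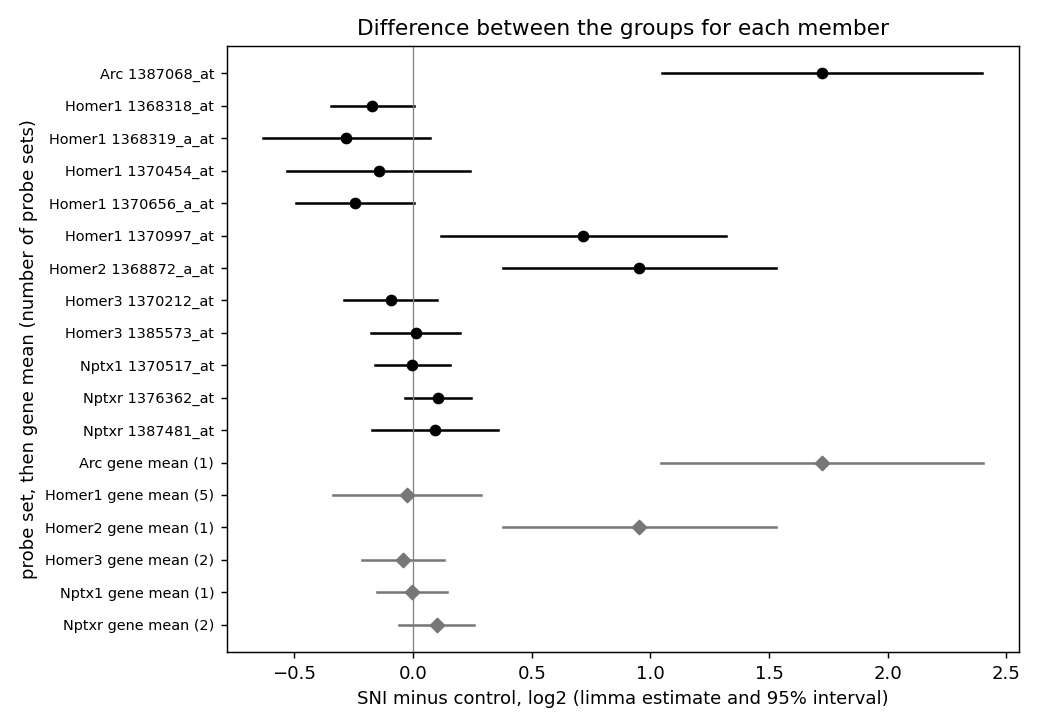
Log2 difference, SNI minus control (x axis), with its 95% confidence interval from limma, for the 12 probe sets (black circles) and the 6 gene means (grey diamonds, number of probe sets in parentheses). The intervals of Arc, Homer2 and probe set 1370997_at of Homer1 lie above 0, and that of the Homer1 gene mean runs from −0.34 to 0.29. The members were chosen on this contrast, so the intervals are a description and not a test.

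Of the 12 probe sets, 6 were higher and 6 lower in the SNI group, and their median log2 difference was 0.0037, against −0.0011 over all probe sets. At an adjusted p under 0.05 over all probe sets, limma called 0 of the 12 members, beside 10 of all 31042 probe sets (0.0322%). At an unadjusted p under 0.05 with a linear fold change above 1.5, the study's criteria as read here, 3 were higher (Arc, Homer2 and 1370997_at of Homer1), beside 0.245% of all probe sets. None was lower, beside 0.119%. Over the array this reading called 76 probe sets higher and 37 lower, more than the study lists. The study's list holds none of the members, so this reading does not reproduce its selection. With the unadjusted p alone the counts of members were the same, 3 higher and 0 lower. No share over all probe sets was computed for that threshold alone, so these counts have no background beside them. The SNI samples lay wholly above the control samples on 3 members (Arc, Homer2 and 1376362_at of Nptxr), beside 8.35% of all probe sets, and wholly below on 1, beside 11.2%. Since these genes were chosen with this contrast in view, nothing is read from these counts. With the methods' t-test, an unpaired test without limma's shared variance, only Arc met the same criteria, and none passed adjustment. Arc passed an adjusted p of 0.05 in limma without SNI sample 1, its lowest SNI sample, and with no other single sample left out. It also passed with the replicate number as a block, although the numbers are not known to pair samples. Nothing is read from these calls either, since Arc was chosen on this contrast. Without SNI sample 2, SNI sample 3 or control sample 2, probe set 1370997_at no longer met the criteria of fold and p. The hybridization controls, control transcripts added before hybridization, were averaged per array and used as a covariate. Their means were 0.19, 0.05 and 0.10 on the SNI arrays and −0.05, −0.20 and −0.22 on the control arrays, without overlap. This covariate cannot be fully separated from the groups, so the log2 differences it gives are not corrected estimates. They were 3.00 for Arc, 1.69 for Homer2, 1.22 for 1370997_at, 0.34 for Nptxr and −0.13 for Nptx1.

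The SNI samples themselves differed in a way that several members shared. SNI sample 2 was the highest SNI sample for 5 of the 6 genes, and SNI sample 1 the lowest for 5 of the 6, with Homer3 the exception in both. Over all 14217 genes the shares were 33.8% and 37.0%. The 6 genes were read on the same arrays, so they are not independent readings. This order held for Arc and Homer2, which differed between the groups, as well as for Nptx1, which did not. In 10 of the 12 probe sets the SD was larger in the control group than in the SNI group, as it was for 70.1% of all probe sets. Arc and 1370997_at of Homer1 were the exceptions.

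The genes with sample profiles most like that of Arc included 5 transcription factors of the immediate early response. Likeness was measured as Pearson's r between gene means over the 6 samples, among 1133 genes with a range of at least 0.5 on the log2 scale. It is a description, since all genes share the 6 arrays and a shared group difference alone gives a high r. The 10 nearest were the transcription factors Nr4a1 (r = 0.998), Egr2 (0.99), Junb (0.98), Fos (0.97) and Egr1 (0.96), the NF-κB inhibitor Nfkbia (0.98), Klhl3 (0.99), Tiparp (0.97), the beta-globin gene Hbb (0.97) and Tnfrsf25 (0.96). Nr4a1 was at 0.28, 1.14 and 0.83 in the SNI samples and at −0.49, −0.32 and −0.28 in the control samples, the same order of the SNI samples as Arc. For Homer2 the nearest were Ier2, an immediate early gene (r = 0.97), Gpr19 (0.95), Osbpl3 (0.95), Sdk2 (0.92) and Tstd1 (0.92). Among the members, r with Arc was 0.90 for Homer2, 0.81 for Nptxr, 0.13 for the Homer1 mean, −0.01 for Nptx1 and −0.27 for Homer3.

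**Figure D4:**
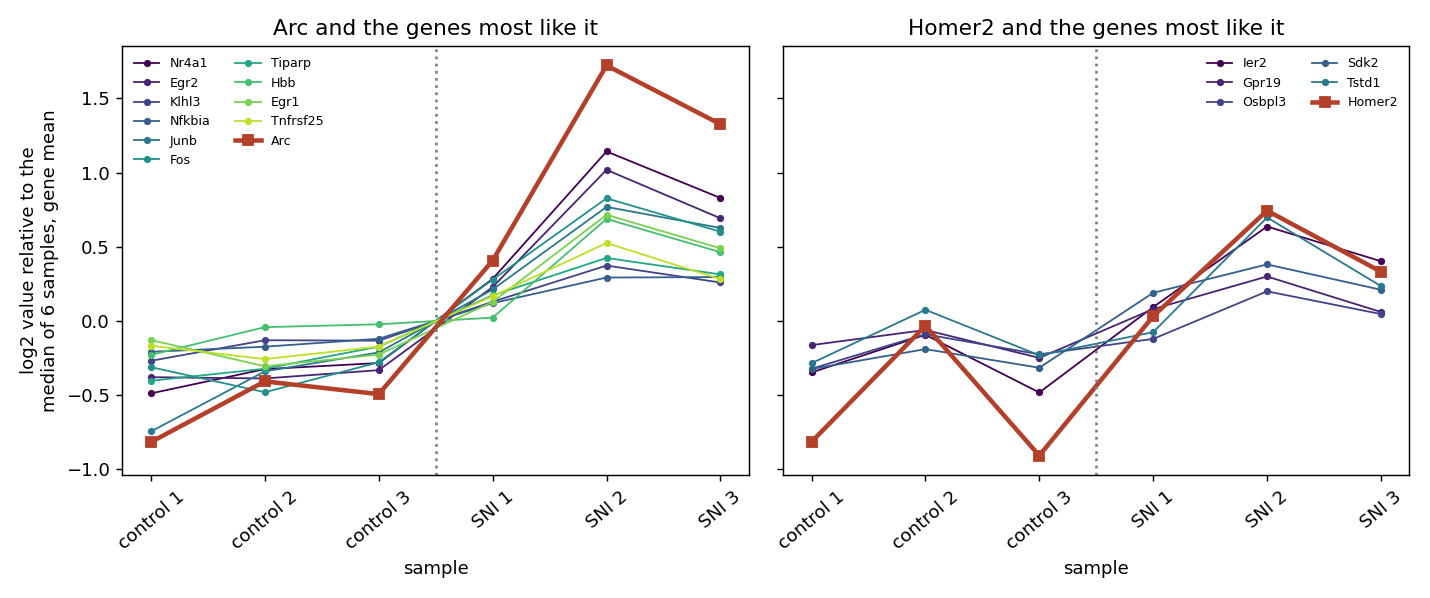
Gene mean of the log2 value relative to the median (y axis) in each sample (x axis) for Arc with its 10 nearest genes (left) and Homer2 with its 5 nearest genes (right). Lines join the values of 1 gene; in the left panel 9 of the 10 nearest genes have their highest value in SNI sample 2, as Arc has.

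The other genes of the pathway were taken from lists of partners, targets and signalling genes, each gene as the mean of its probe sets. At an adjusted p under 0.05 limma called none of them, beside 0 of all 14217 genes (0%), as did the methods' t-test. Of 111 listed genes 101 were measured. At an unadjusted p under 0.05, 19 of them were higher and 6 lower in the SNI group, beside 3.96% of all genes higher and 9.19% lower. Adjusted p-values in the next paragraphs are from limma over all genes. Of 60 listed genes with several probe sets, 26 had probe sets of opposite sign.

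Of 15 measured partners of the Arc protein, 1 was higher and 2 were lower at the unadjusted threshold, with a median log2 difference of −0.01 (all genes, −0.01). Notch1, a receptor whose activation involves Arc, was at 0.19 (SE 0.05, adjusted p = 0.230), and Cacng2, the auxiliary AMPA receptor subunit stargazin, at 0.08 (SE 0.07, adjusted p = 0.652). Sh3gl2, an endophilin of endocytosis, was at −0.34 (SE 0.09, adjusted p = 0.217) and Grin2b, an NMDA receptor subunit, at −0.24 (SE 0.05, adjusted p = 0.197). Each of these 4 genes had 2 probe sets of the same sign.

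Of 14 measured ligands of Homer and neighbouring scaffold proteins, 2 were higher and none was lower, with a median of 0.05. They were Shank3, a scaffold that binds Homer, at 0.23 (SE 0.07, adjusted p = 0.265) and Agap2, a GTPase that couples Homer to PI3 kinase, at 0.15 (SE 0.07, adjusted p = 0.375). The lowest were Grm5, the metabotropic glutamate receptor 5, at −0.05 (SE 0.06), with probe sets at −0.16 and 0.05, and the scaffold adaptor Dlgap2 at −0.05 (SE 0.07).

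The list of AMPA receptor genes, which also holds the protease that cleaves Nptxr, had 13 measured genes. Of these, 1 was higher and 2 were lower, with a median of −0.0079. Gria1, an AMPA receptor subunit, was at 0.23 (SE 0.10, adjusted p = 0.358), and its groups overlapped. Gsg1l, an auxiliary subunit, was at 0.12 (SE 0.07). The auxiliary subunits Cacng8 and Cacng3 were at −0.42 (SE 0.12, adjusted p = 0.237) and −0.27 (SE 0.07, adjusted p = 0.216), each with every SNI sample below every control sample. Arnt and Arnt2, which pair with the transcription factor NPAS4, were at 0.08 (SE 0.08) and −0.02 (SE 0.06).

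Of 26 measured other genes regulated by activity, 6 were higher and 2 lower, with a median of −0.02. Ier2 was at 0.68 (SE 0.15, adjusted p = 0.196) and Gadd45b, a stress and DNA repair factor, at 0.52 (SE 0.15, adjusted p = 0.239). Pcdh8, the activity-regulated protocadherin arcadlin, was at −0.26 (SE 0.09, adjusted p = 0.305) and Syt4, a synaptotagmin, at −0.22 (SE 0.07, adjusted p = 0.254). The list mean overlapped between the groups (−0.09, 0.12 and 0.04 after SNI, −0.07, −0.10 and 0.03 for controls).

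Of 19 measured genes that carry activity signals to the nucleus, 2 were higher and none was lower, with a median of −0.06. Camk2a, the alpha subunit of calmodulin kinase II, was at 0.29 (SE 0.06, adjusted p = 0.196), with all 4 probe sets between 0.18 and 0.40. Camkk2, an upstream kinase, was at 0.20 (SE 0.11, adjusted p = 0.491). Its probe sets were at 0.45 and −0.04, and it did not pass the unadjusted threshold. The other gene that passed it was Grin1, the obligatory NMDA receptor subunit, at 0.19 (SE 0.07, adjusted p = 0.322), named here after its value was seen. The probe sets of Grin1 were at 0.39 and −0.0073, so 1 of them carries the difference. Mef2c, a transcription factor, was at −0.17 (SE 0.08, adjusted p = 0.384) and the kinase Rps6ka2 at −0.15 (SE 0.08, adjusted p = 0.455).

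The 13 transcription factors of the immediate early response, listed for comparison, had a median of 0.22, and 7 were higher and none was lower at the unadjusted threshold. Earlier results on these genes were known when the list was written, so it is not independent evidence of a direction. Nr4a1 was at 1.12 (SE 0.19, adjusted p = 0.143) and Egr2 at 1.01 (SE 0.17, adjusted p = 0.143), the latter from probe sets at 1.65 and 0.37. At the other end were Jund at −0.12 (SE 0.15), with 2 of its 3 probe sets at 0.12 and the third at −0.59, and Egr3 at −0.0030 (SE 0.08). Without SNI sample 1, the lowest SNI sample of each, Egr2, Fos and Nr4a1 passed adjustment (adjusted p = 0.0308, adjusted p = 0.0434 and adjusted p = 0.0308). With any other single sample left out, no listed gene did. Fos had probe sets at 1.86 and −0.01.

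**Figure D5:**
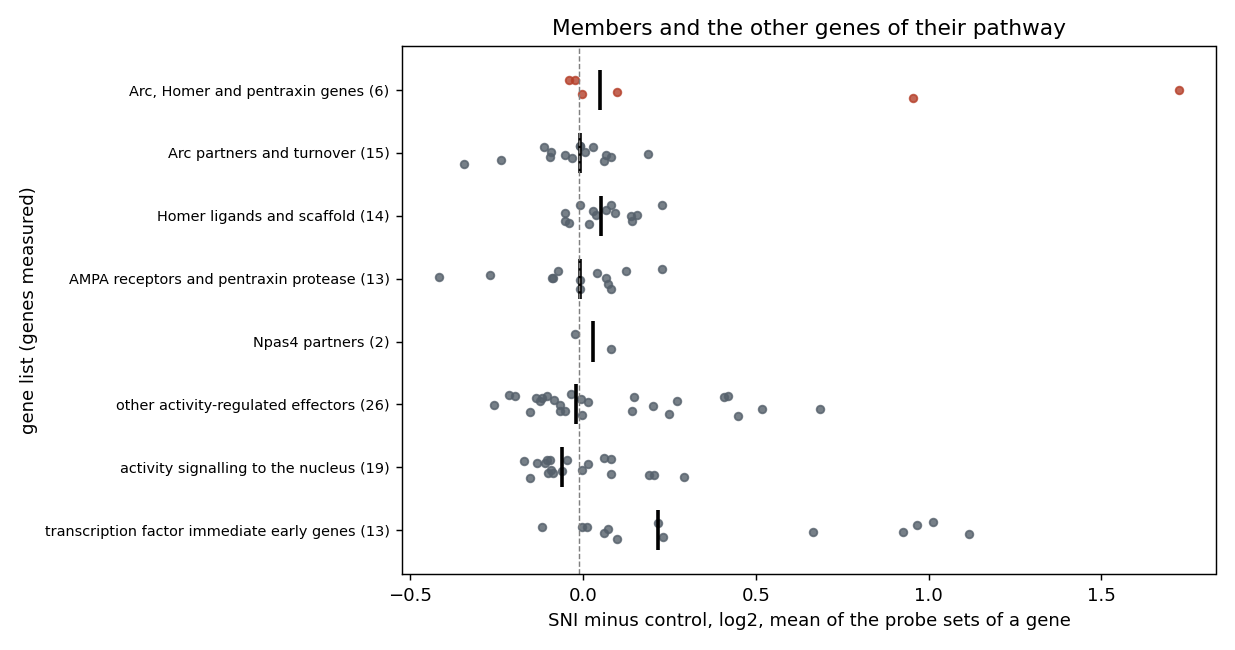
Log2 difference, SNI minus control (x axis), of each gene of 8 groups (y axis, with the number of genes measured); a point is the mean of the probe sets of a gene, the black bar the median of the group and the dashed line the median of all genes. Arc (1.72) and Homer2 (0.95) stand to the right of the other 4 measured members, and the transcription factors have the highest median of the other lists (0.22).

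Some other measures moved with the groups. Over all 14217 genes, 6432 were higher and 7785 lower in the SNI group. At an unadjusted p under 0.05 from limma the shares were 3.96% higher and 9.19% lower. No such share was computed for list means, so their lack of overlap has no background beside it. In bulk tissue fewer cells of a type and less RNA per cell cannot be told apart. Of 10 microglia markers 9 were higher in the SNI group, 6 of them at an unadjusted p under 0.05, and the list mean was 0.06 to 0.15 in the SNI samples and −0.17 to −0.06 in the control samples. Of 8 markers of endothelium and blood 7 were higher, and Cldn5, Hbb and Alas2 passed that threshold (0.01 to 0.19 against −0.08 to −0.06). Of 9 markers of GABA interneurons 8 were lower, none at that threshold (−0.15 to −0.0038 against 0.02 to 0.20). Of 9 markers of cortical glutamatergic layers 6 were lower, and Bcl11b and Tle4 (lower) and Cux2 (higher) passed that threshold (−0.07 to 0.02 against 0.03 to 0.08). Of 7 striatal markers 4 were lower, near the share over all genes, and Penk and Ppp1r1b passed that threshold (−0.06 to −0.04 against 0.04 to 0.13). The list means of neurons (8 of 10 lower), astrocytes (8 of 9 higher) and oligodendrocytes (8 of 9 lower) overlapped between the groups. At that threshold Syt1 and Snap25 were lower and Map2 higher among the neuronal markers, Aldoc was higher among those of astrocytes and Cldn11 lower among those of oligodendrocytes. As a measure of RNA quality, the 3′ minus 5′ control signal was −0.00084 to 0.07 in the SNI samples and −0.10 to 0.00084 in the control samples for GAPDH. It was 0.0036 to 0.12 against −0.07 to 0.06 for beta-actin and −0.09 to 0.17 against −0.15 to 0.0080 for hexokinase. The groups overlapped for each, with the higher mean in the SNI samples each time. These signals too are relative to a median, so they compare samples and do not tell whether the RNA was intact. The 18 probe sets of the hybridization controls had a mean that was higher by 0.27 on the SNI arrays. Hbb, a transcript of red blood cells, was at 0.02, 0.69 and 0.46 in the SNI samples and at −0.23, −0.04 and −0.02 in the control samples, which is the order of the SNI samples also seen for Arc. The part of these measures in the differences of the members was not tested, and since values are relative to a median, it cannot be said which markers are at background.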

How the data were processed

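The authors measured messenger RNA of the contralateral PL in 3 SNI and 3 control samples on Affymetrix GeneChip Rat Genome arrays. They deposited log2 values, made with RMA correction and quantile-normalized between arrays, with software versions not given in the sources used here. These values are in addition relative to the median of each probe set, which was 0 within 4.78e-07 over the 6 samples.

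The array holds 31099 probe sets. Its 57 control probe sets were not tested. Of the remaining 31042, 20826 had 1 symbol in the platform annotation, 436 several and 9780 none. A gene value is the mean over its probe sets of 1 symbol. Groups were compared with limma 3.58.1 (lmFit, eBayes, no covariates) in R 4.3.3; p-values are two-sided and were adjusted over all probe sets, or all genes, after Benjamini and Hochberg. The script was tested on simulated data. Plots used Python 3.11.15 with matplotlib 3.10.9. With 3 samples a group, the smallest exact permutation p is 0.1, and the number of arrays limits the precision.

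The members and lists were chosen with earlier results of these data known. Named were all members, the 2 highest and 2 lowest genes of each list that is not a marker list, any list gene past an adjusted p of 0.05, and the 10 genes most like Arc and 5 most like Homer2; Fos without SNI sample 1, Grin1, single markers, Hbb by sample, and the members past a criterion were singled out after their values were seen. Alternatives were a replicate block, the hybridization controls as a covariate, a repeated quantile normalization, aligned array medians, the median over probe sets, the methods' t-test, other thresholds, and each sample left out.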

Additional observations from a re-analysis of the deposited data

How the results depend on the processing

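The log2 differences of Arc, Homer2 and Nptxr as gene means kept their sign in all 11 alternative settings that gave a difference, that of Homer3 in 10, that of the Homer1 mean in 9 and that of Nptx1 in 6. The hybridization controls as a covariate moved the gene means of Arc to 3.00, Homer2 to 1.69, Nptxr to 0.34 and Nptx1 to −0.13. This covariate did not overlap between the groups, so these values are not corrected estimates. Probe set 1370997_at of Homer1 moved to 1.22 and no longer met the criteria of fold and p. Beside Arc and Homer2, probe set 1387481_at of Nptxr met them, at 0.63. The other Nptxr probe set, 1376362_at, was at 0.05 with the covariate, and the Nptxr gene mean lay below the fold threshold. The cause was not tested. With each sample left out in turn, Arc lay between 1.44 and 2.10, Homer2 between 0.77 and 1.23, probe set 1370997_at between 0.45 and 1.01, the Homer1 mean between −0.13 and 0.09, Homer3 between −0.09 and 0.03, Nptx1 between −0.05 and 0.04, and Nptxr between 0.05 and 0.15. The count of members that met the criteria of fold and p then ranged from 2 to 3. It was 1 with the methods' t-test, and 1 when the fold was read as log2. No share over all probe sets was computed for these criteria in the alternative settings, the covariate included, so nothing is read from these counts. Members past an adjusted p of 0.05 numbered 0 to 1 with samples left out, and 1 with the replicate block. Same-numbered samples did not deviate together (correlations 0.0085, −0.0098 and −0.07), so the numbers are not known to pair samples; the replicate block left the counts of listed genes at 19 and 6 and gave 9 called probe sets in place of 10. Probe sets called over the whole array numbered 66 with quantile normalization repeated, 0 with the methods' t-test, and 0 to 35 with samples left out (0 without SNI sample 3, 1 without SNI sample 2 or control sample 3, and 35 without control sample 2). Called genes numbered 2 with the covariate and 0 to 4 with samples left out, of which listed genes were 1, Junb, with the covariate and 0 to 3 with samples left out. Listed genes higher at an unadjusted p under 0.05 numbered 12 with the methods' t-test and 14 to 21 with samples left out, and those lower 5 to 9. Since values are relative to a median, no filter on dim probe sets could be tried.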
